A study of Ovis aries with 16 samples.

Results

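The 154 names from miR-6715 to miR-6895 in a count table of small RNAs from sheep serum and serum extracellular vesicles (EVs, membrane-bound particles shed by cells) are described here. Members were all rows numbered from miR-6715 through miR-6895, on either arm, and they were 154 of the 1105 rows of the table (13.9%). They came from 113 hairpins. Of the rows, 90 named a 5p arm, 63 a 3p arm and 1, miR-6745, no arm.

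Small RNAs were sequenced from adolescent sheep with normal biventricular hearts, around a Fontan operation in a single stage, in which systemic veins are joined to the pulmonary arteries. Serum and EVs made 8 libraries each. In either fluid, 5 came from animals A to E before the operation and 3 from animals D to F after it. The letters in the sample titles were read as animals. Animal D was sampled on day 6 and animals E and F on day 7 after surgery, so animals A to C have no sample after it and animal F none before it. The labels call the samples before surgery controls and name no sham operation, so time and the operation cannot be told apart. Reads were assigned to human names, and no name was checked against sheep sequence.

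This stretch of the miRNA registry is rich in mirtrons, though which members are mirtrons was not checked here. A mirtron is a short intron that, once spliced and debranched, folds into a hairpin that Dicer can cut, so it bypasses the cleavage by Drosha that ordinary miRNA precursors need. Its 5p arm begins at the splice donor and its 3p arm, usually rich in pyrimidines, ends at the splice acceptor. Mirtrons are in general less conserved between mammals and less abundant than classical miRNAs. No sequence is shown, as none of these miRNAs was in the sources used here. In the sheep RefSeq gene table (assembly ARS-UI_Ramb_v3.0), 0 of the 113 hairpin numbers of the block matched any of its 106 genes with a MIR symbol, against 56 of the 688 other miRNA numbers, and this table is no test of whether sheep make them.

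The block took 4.10% to 14.9% of a library's counts, and 3 names held 71.2% of its counts summed over all libraries. By library these 3 names held from 27.7% to 92.2% of the block. In EVs they held 29.4%, 27.7%, 55.6%, 52.9% and 30.8% in animals A to E before and 72.9%, 34.7% and 43.1% in animals D to F after surgery. In serum they held 33.7% in animal D before surgery and 74.0% to 92.2% in the other libraries. The block's share in serum before surgery was 10.6%, 8.82%, 4.12%, 11.1% and 9.52% in animals A to E, and after surgery it was 14.9%, 5.63% and 6.02% in animals D to F. In EVs it was 11.9%, 7.76%, 4.10%, 7.49% and 7.86% before and 8.73%, 4.15% and 9.30% after surgery. Every pair of groups overlapped, with means of 8.83% ± 2.78 (n = 5) and 8.85% ± 5.24 (n = 3) in serum and 7.81% ± 2.76 (n = 5) and 7.39% ± 2.82 (n = 3) in EVs, before and after surgery. Within animals the share went from 11.1% to 14.9% in serum of D and from 9.52% to 5.63% in serum of E, and from 7.49% to 8.73% in EVs of D and from 7.86% to 4.15% in EVs of E. It thus went up in both fluids of animal D and down in both fluids of animal E. These shares are sums over members chosen with results known and carry no test. A share of counts does not tell more particles or cells from more RNA in each.

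Of the 3 lowest block shares, those of animal C before surgery stood beside the highest shares of red blood cell miRNAs. The 7 measured names of the red blood cell list, among them miR-486-5p and miR-451a, took 66.8% of counts in serum of animal C before surgery and 56.5% in EVs of that animal, the libraries where the block took 4.12% and 4.10%. They took 15.8% to 50.9% in the other 14 libraries, with 28.8% in EVs of animal E after surgery, where the block took 4.15%. By group their share was 42.9% ± 17 (n = 5) and 39.0% ± 13.8 (n = 3) in serum and 27.5% ± 16.5 (n = 5) and 24.2% ± 4.11 (n = 3) in EVs, before and after surgery. Their part in the block's share was not tested. miR-122-5p, the liver's most abundant miRNA, took 13.3%, 18.4% and 0.641% in EVs of animals D to F after surgery and 0.0899% to 7.97% in EVs before it, and its part was not tested either.

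**Figure D1:**
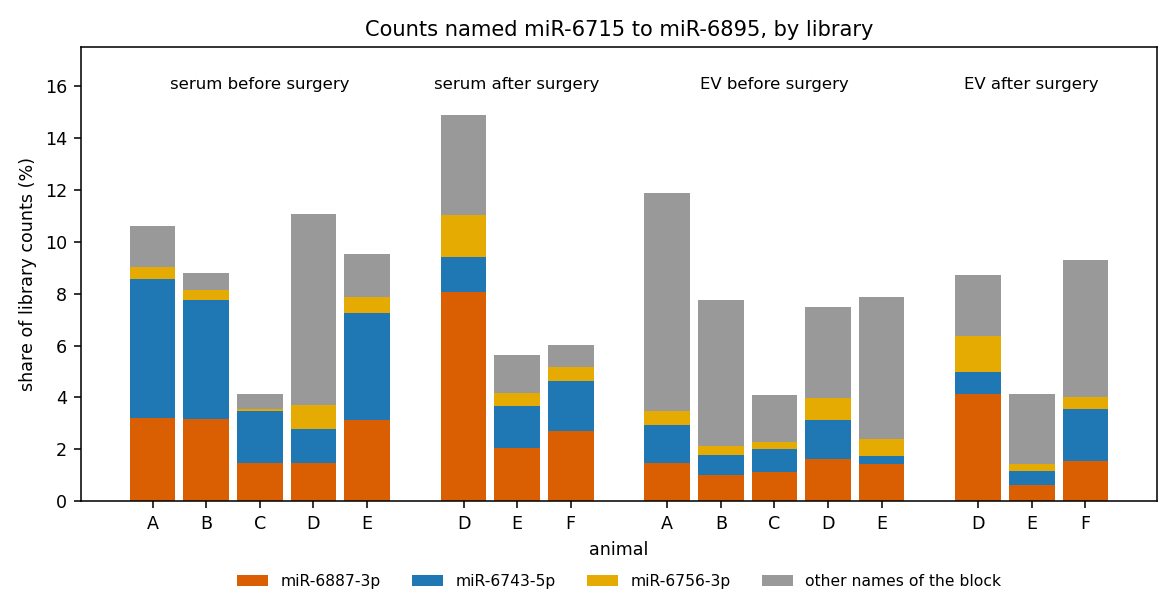
Share of library counts (%) named miR-6715 to miR-6895, with 1 stacked bar per library (letters are animals). Coloured parts are the 3 most abundant names and grey is the sum of the other 151. Orange is tallest in animal D after surgery (8.07% in serum and 4.14% in EVs), and grey is tallest in EVs of animal A (8.39%) and serum of animal D (7.34%) before surgery.

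The most abundant name, miR-6887-3p, is the 3p arm of its hairpin. It took 3.19%, 3.18%, 1.49%, 1.47% and 3.12% of counts in serum of animals A to E before surgery and 8.07%, 2.07% and 2.70% in serum of animals D to F after it. In EVs it took 1.47%, 0.995%, 1.12%, 1.64% and 1.44% before and 4.14%, 0.642% and 1.54% after surgery. Animal D after surgery held the highest share in both fluids, and the other after-surgery libraries lay within or below the range of their fluid before surgery.

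The second name, miR-6743-5p, comes from the 5p arm. Its share in serum was 5.38%, 4.60%, 1.98%, 1.31% and 4.13% before and 1.37%, 1.60% and 1.92% after surgery. In EVs it was 1.46%, 0.790%, 0.879%, 1.48% and 0.316% before and 0.844%, 0.518% and 2.03% after surgery. All 3 serum libraries after surgery thus lay at the low end of the range before it. The ratio of miR-6887-3p to miR-6743-5p counts was 0.593 to 1.12 in serum before surgery and 1.30 to 5.90 after it, so these groups did not overlap. In EVs the ratio was 1.01 to 4.56 before and 0.756 to 4.90 after surgery, where the groups overlapped. This ratio was chosen once the leading names were known and carries no test. How often other pairs of names separate so few libraries was not examined. Over all libraries, miR-6743-5p was the leading member in 5 of 16 and miR-6887-3p in the other 11.

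The third name, miR-6756-3p, took 0.470%, 0.357%, 0.0986%, 0.947% and 0.617% in serum before and 1.59%, 0.525% and 0.565% after surgery. In EVs it took 0.564%, 0.360%, 0.285%, 0.842% and 0.660% before and 1.38%, 0.279% and 0.432% after surgery. As for miR-6887-3p, the highest library of each fluid was that of animal D after surgery. For a single library, the Wilson 95% interval extended no more than 0.111 percentage points from the share of any of these 3 names and no more than 0.243 from that of the block. PCR copies are not independent molecules, so such intervals hold counting error alone.

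No other member exceeded 1% of any library, and 113 of the 154 stayed under 0.1% in all 16. Next by mean share came miR-6743-3p, miR-6836-3p, miR-6789-5p, miR-6800-5p, miR-6717-5p, miR-6815-3p, miR-6779-5p, miR-6811-5p and miR-6752-3p. miR-6789-5p had 84 to 336 counts in serum before and 105 to 2056 after surgery, and 45 to 564 and 38 to 746 in EVs. miR-6800-5p had 60 to 437 and 124 to 710 counts in serum and 24 to 197 and 46 to 449 in EVs, before and after surgery. miR-6717-5p took 0.130% ± 0.0600 (n = 5) of EV counts before surgery against 0.0389% ± 0.0492 (n = 5) of serum counts. miR-6815-3p had 565 counts in EVs of animal A before surgery and 0 to 47 in the other 15 libraries, so 1 library set its EV mean. miR-6724-5p, whose human gene lies in the ribosomal RNA repeats, reached 347 in animal D's serum after surgery, 558 in EVs of animal C before it and 17 to 174 counts in the other 14 libraries.

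**Figure D2:**
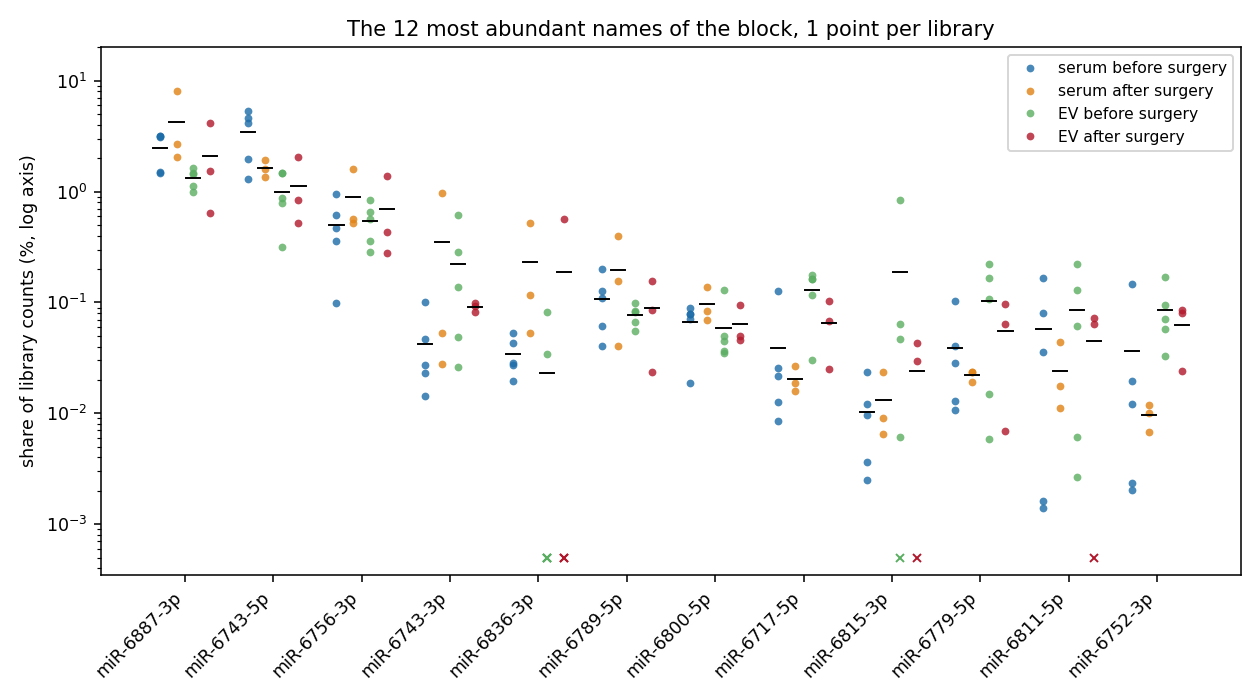
Share of library counts (%, log axis) of the 12 most abundant names of the block, with 1 point per library, black lines for group means and crosses for libraries listed at 0. The first 3 names lie above the other 9 on average, and single libraries stand far above the rest of their group for miR-6743-3p and miR-6836-3p in serum after surgery and for miR-6815-3p in EVs before surgery.

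Outside the 3 leading names, the count of a typical member hardly followed the depth of the library. Library totals ran from 65537 to 639207 counts. The other 151 members summed to 3677 counts in the library with the lowest total (EVs of animal B before surgery) and to 3553 in the library with the highest (serum of animal C before surgery). The median count of those above 0 was 25 and 20 in these libraries, and 18 to 54 over all 16. As a share of counts they took 5.29% to 8.39% in the 5 libraries under 100000 counts and 0.556% to 3.87% in the 11 above.

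The leading names and a few others followed depth. Across the 16 libraries, the log2 count of miR-6887-3p had a Pearson correlation of 0.89 with the log2 library total, with a slope of 1.34. The slope was 1.20 for miR-6743-5p and 0.896 for miR-6756-3p. Members outside the leading 3 with slopes close to these were miR-6789-5p (1.11, correlation 0.80), miR-6800-5p (0.943, correlation 0.83) and miR-6813-3p (0.975, correlation 0.63), named after their values were seen. A share that is the same in every library gives a slope of 1. Of the members above 0 in all 16 libraries, the 46 outside the leading 3 had a median slope of 0.075 and a median correlation of 0.088. The 326 other names of the table above 0 in all libraries had medians of 0.44 and 0.45. These values describe the same 16 libraries, which differ in fluid and time as well as in depth, and carry no test.

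**Figure D3:**
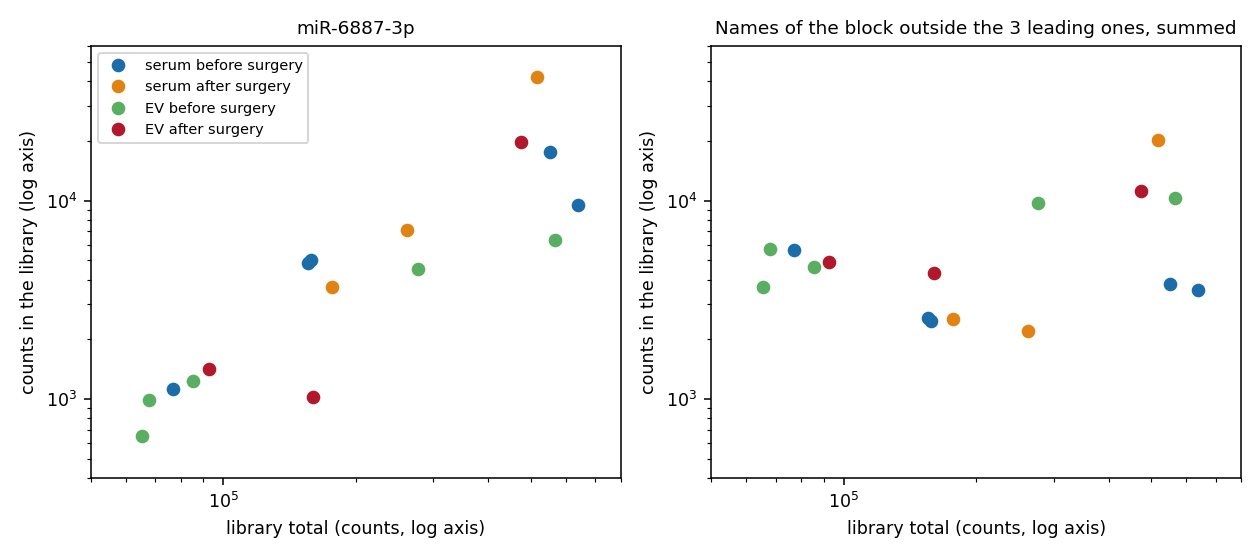
Counts per library (log axis) against the library total (log axis) for miR-6887-3p on the left and for the sum of the 151 names outside the 3 leading ones on the right, coloured by group. Counts of miR-6887-3p climb with the total from 652 to 41767, whereas the sum on the right lies between 2205 and 20064 and is about as high at the lowest totals as at the highest totals of serum before surgery.

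Most members peaked in the shallowest libraries. The highest share of a member fell in serum of animal D before surgery for 43 names, in EVs of animal A before surgery for 40, in EVs of animal F after surgery for 16, in EVs of animal E before surgery for 15 and in EVs of animal B before surgery for 8. These 5 libraries are those under 100000 counts. The same tally was not made for the names outside the block, so it does not show a trait particular to the block. The miR-4251 to miR-4804 names, another late stretch of the registry with 180 rows, took 5.43% to 8.12% of these 5 libraries and 0.668% to 4.65% of the other 11. The 9 rows from miR-7106 to miR-7114 took 0.0508% to 0.430% of any library. The 13 rows of mirtrons with earlier numbers, such as miR-877 and miR-1224, took 0.0751% to 2.53%, highest in serum of animal D after surgery.

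Of the 154 members, 49 were above 0 in all 16 libraries (31.8%), as were 326 of the 951 other names (34.3%). In serum 72 to 126 members were above 0 per library and in EVs 116 to 148. Zeros came in sets shared by libraries. The serum libraries B (before surgery), E and F (both after) listed the same 81 members at 0, with 82 at 0 in any of them. The EV libraries A, B and E before and E and F after surgery shared 36 members at 0, with 40 at 0 in any. In serum A and E before surgery 57 were shared and in serum C and D before surgery 28. The smallest sum of any other member over the first 3 libraries was 26 counts and over the 5 EV libraries 73. A count of 0 is therefore read only as listed at 0. Names outside the block were also often at 0. In the first 3 libraries 46.8% to 47.4% of members and 52.3% to 53.0% of other names were above 0. In the 5 EV libraries it was 75.3% to 76.6% and 70.2% to 72.7%. In serum A and E before surgery it was 60.4% and 62.3% beside 69.6% and 70.8%, and in C and D 80.5% and 81.8% beside 79.1% and 78.9%. Zeros shared between libraries were not counted for the other names.

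Arm use of the block as a whole was close to even before surgery. The 5p rows held 53.0% to 59.8% of the 5p and 3p counts in serum before surgery (mean 55.9% ± 2.57, n = 5) and 44.8% to 52.3% in EVs (mean 49.7% ± 3.04, n = 5). After surgery the share was 19.5%, 42.6% and 40.0% in serum of animals D to F, all below the lowest value before it. In EVs after surgery it was 23.1%, 50.7% and 55.6%, below the range before it in animal D, within it in animal E and above it in animal F. Within animals it went from 53.0% to 19.5% in serum of D and from 54.5% to 42.6% in serum of E. In EVs it went from 48.8% to 23.1% in D and from 44.8% to 50.7% in E, the only one of the 4 pairs that went up.

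The 3 leading names weighed on these values. Without them the 5p share was 60.7% ± 3.11 (n = 5) in serum before surgery and 39.5%, 55.8% and 58.5% after it, so that animals E and F came within the range before surgery of 55.5% to 63.6%. In EVs it was 60.4% ± 5.29 (n = 5) before surgery and 49.5%, 58.6% and 59.2% after it. The low value in serum of animal D after surgery was not seen in the block alone. In that library 5p rows held 50.1% of the counts of all names outside the block and 21.5% of the miR-4251 to miR-4804 names. The corresponding ranges over the other 7 serum libraries were 64.8% to 86.1% and 42.0% to 54.5%. For the miR-4251 to miR-4804 names, serum before surgery ranged from 50.2% to 54.5%. Animal E (42.0%) and animal F (42.5%) fell below this range after it, as in the whole block. For names outside the block they had 76.4% and 86.1%, against 64.8% to 84.5% before surgery. What else differs in animal D's serum library after surgery was not tested.

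**Figure D4:**
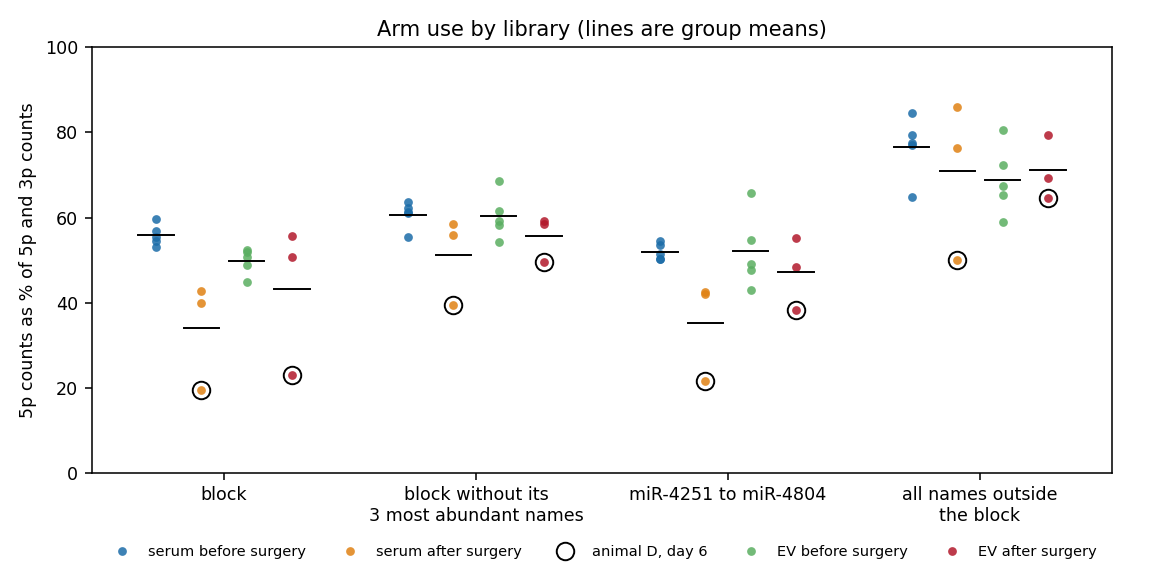
Share of 5p counts among 5p and 3p counts (%) per library, in 4 sets of names, with lines for group means and rings around animal D on day 6. The ringed serum library is the lowest of the 16 in every set, at 19.5% in the block, 39.5% without its 3 leading names, 21.5% in the miR-4251 to miR-4804 names and 50.1% outside the block.

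For 41 hairpins both arms had a row. Summed over libraries, 21 of them had more 5p and 20 more 3p counts. More than 80% of the counts came from 1 arm in 9 of the 41 (22.0%) and in 60 of 145 other hairpins with both arms (41.4%). The same arm led in all 16 libraries for 4 of the 41 (9.76%), against 42 of the 145 (29.0%). The hairpins differ in depth, and this contrast was not tested.

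The hairpins with the most counts, miR-6887 and miR-6743, kept the same leading arm in all 16 libraries. So did miR-6802 and miR-6749, both led by 5p. For miR-6887 the 3p arm led in all 16 libraries, and the 5p arm held 0.168% to 5.37% of its counts. For miR-6743 the 5p arm led in all 16 with a wide range. Its 5p share was 92.8% to 99.7% in serum before surgery and 58.6%, 96.8% and 98.6% in serum of animals D to F after it. In EVs it was 83.8%, 56.2%, 94.7%, 98.3% and 69.6% before and 90.2%, 86.3% and 95.4% after surgery. The 58.6% in serum of animal D came from 5004 counts of the 3p arm beside 7081 of the 5p arm, where the other 7 serum libraries held 43 to 149 counts of the 3p arm. The 56.2% in EVs of animal B came from 403 and 518 counts.

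Of the next hairpins, miR-6789 had a 5p share of 97.3% over all libraries, led by 5p in 15 of 16. The 5p arm of miR-6836 held 1.79%, and its 3p arm led in the 11 libraries with any count. miR-6779 (75.8% 5p) had 100% 5p in every serum library before surgery, because miR-6779-3p was listed at 0 there, and 28.7% to 91.6% in EVs. The arms of miR-6752 (38.3% 5p), miR-6811 (65.7%), miR-6879 (60.3%), miR-6857 (36.7%) and miR-6815 (35.6%) changed order between libraries. For miR-6815 both extremes, 0% and 100%, occurred among the EV libraries, where an arm was listed at 0. Its 0% values in EVs fell in the 5 EV libraries that shared their zeros. miR-6857 had 0% 5p in the 3 serum libraries that shared theirs. miR-6811 had 100% 5p in serum libraries A and E before surgery, which also shared zeros. Values that rest on a listed 0 are therefore not read as a change of arm.

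After surgery no member passed the threshold in serum (edgeR quasi-likelihood test, Benjamini-Hochberg adjusted p under 0.05, n = 3 and 5), and the percentage called over all 696 tested names was 0%. DESeq2 and limma-voom also called 0 names, though DESeq2 gave no p for miR-6743-3p and miR-6813-3p, here and in both other tests that use serum after surgery. Of 94 members tested, 46 had a log2 fold change above and 48 below 0, with a median of −0.053 beside −0.20 over all tested names. At an unadjusted p under 0.05 stood 8 of the 94 members (8.51%), 5 of them higher and 3 lower, against 7.76% of all tested names (4.17% higher and 3.59% lower). Scaled to library totals, 21 members lay above and 73 below 0, with medians of −1.09 for members and −0.88 for all names. Of the mirtrons with earlier numbers 10 were tested, of which 7 lay above and 3 below 0 (median 0.99). Of the 10, 3 had an unadjusted p under 0.05, all higher, with none called after adjustment. Elsewhere the median of this list was 0.058 in EVs after against before surgery and −0.042 for the interaction of fluid and surgery. For EVs against serum it was 0.53 before and −0.50 after surgery.

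The members with the smallest p on the higher side were highest in serum of animal D. miR-6743-3p had 5004 counts there, 93 in animal E and 73 in animal F, against 43, 79, 149, 78 and 73 in animals A to E before surgery. Its log2 fold change was 3.84 (SE 1.03, edgeR adjusted p = 0.581), and without that library it was 0.36. miR-6813-3p had 1754, 25 and 30 counts after and 26, 89, 23, 6 and 19 before surgery (3.82, SE 1.07, adjusted p = 0.581), and 0.24 without animal D. miR-6836-3p had 2722, 205 and 139 after and 83, 107, 180, 21 and 67 before surgery (3.06, SE 0.867, adjusted p = 0.581), and 1.28 without animal D. Of the other after-surgery libraries, E exceeded every count of miR-6836-3p before surgery and F all but that of animal C. Both miR-6743-3p and miR-6813-3p came under the threshold when low counts were not filtered (0.0446 each). Over all other alternatives no member passed in serum. On the share scale, 5 members above 0 elsewhere in serum (miR-6743-3p, miR-6813-3p, miR-6836-3p, miR-6887-3p and miR-6821-5p) were more than 2 times as high in serum of animal D after surgery as in any other serum library. Another 9 members had 10 to 47 counts there and were listed at 0 in the other 7 serum libraries, which gives no ratio. Together these were 14 of the 154 members (9.09%). By the same rule, 34 of the 951 other names (3.58%) stood out in that library, and this contrast was not tested. The library and miR-6821-5p were singled out after their values were seen.

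On the lower side stood names listed at 0 in all 3 serum libraries after surgery, for which no fold is given. They passed the filter on low counts through serum before surgery alone and could only come out lower, so their direction is no result. miR-6787-5p had 15, 0, 14, 21 and 20 counts before surgery, miR-6824-5p 10, 0, 21, 34 and 9, and miR-6766-5p 9, 0, 17, 35 and 10 (edgeR adjusted p = 0.581 each). Animal B, at 0 for all 3, shares its zeros with animals E and F after surgery. The 3 leading names had log2 fold changes of 1.00 (SE 0.902) for miR-6887-3p, −1.01 (SE 0.921) for miR-6743-5p and 1.54 (SE 0.753) for miR-6756-3p, with adjusted p of 0.968, 0.968 and 0.695. Without serum of animal D after surgery the values for miR-6887-3p and miR-6756-3p were −0.053 and 0.63, and with the animal as a replicate block that of miR-6743-5p was 0.53.

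In EVs no member passed after surgery either (edgeR, n = 3 and 5), with 0% of 856 tested names called, and 0 by DESeq2 and limma-voom. Of 122 members tested, 62 lay above and 60 below 0 (median 0.011 beside −0.017 over all tested names). No member was under an unadjusted p of 0.05, where 1.75% of all tested names were, 1.4% higher and 0.35% lower. Scaled to library totals, 34 members lay above and 88 below 0.

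Apart from miR-6887-3p, the members with the smallest p in EVs had at most 200 counts in any EV library. miR-6861-5p had 27, 46, 138, 77 and 55 counts before and 200, 51 and 135 after surgery (log2 fold change 1.06, SE 0.509). miR-6746-3p had 20 to 112 counts before and 36 to 149 after (1.01, SE 0.563). miR-6716-3p had 59, 17, 32, 139 and 16 before and 26, 4 and 15 after surgery (−1.67, SE 0.787), miR-6780b-3p 25 to 73 and 3 to 46 (−1.44, SE 0.707) and miR-6720-5p 24 to 44 and 3 to 17 (−1.59, SE 0.849). All had an adjusted p of 0.999 by edgeR. miR-6887-3p had 1.48 (SE 0.839), which became −0.39 without EVs of animal D after surgery. miR-6756-3p had 1.28 (SE 0.841) and turned to −0.56 without that library. miR-6743-5p had 0.44 (SE 0.771). Each had an adjusted p of 0.999. In EVs of animal D, miR-6836-3p reached 2699 counts, close to the 2722 of that animal's serum. miR-6743-3p (436) and miR-6813-3p (171) did not reach their serum counts there.

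Before surgery, 3 members passed between EVs and serum in the fit without animals, all higher in EVs, which were 3 of 112 tested (2.68%). Over all 768 tested names 2.99% were called (edgeR, n = 5 and 5), 2.73% higher and 0.26% lower. At an unadjusted p under 0.05 stood 9 members higher and 7 lower (14.3% of 112), beside 6.64% and 7.29% of all names (13.9% in all). The fit with the animal as a replicate block called 0 names. The 3 were miR-6779-3p, miR-6731-5p and miR-6748-3p, each listed at 0 in all 5 serum libraries (adjusted p = 0.0134 each, and 0.335, 0.335 and 0.363 with the block), so no fold is given. They passed the filter on low counts through EVs alone and could only come out higher there, so their direction is no result. In EVs of animals A to E miR-6779-3p had 24, 28, 76, 102 and 13 counts, miR-6731-5p had 44, 9, 61, 51 and 32, and miR-6748-3p had 5, 14, 68, 61 and 25. After surgery they were listed at 0 in serum of animals E and F and had 22, 23 and 33 counts in serum of animal D. The fit with a minimum count of 50 did not test them, nor did the fit of names above 0 in every library, and neither called any name. DESeq2 called 8 members among 54 names and limma-voom 25 among 150. Leaving out any 1 serum library raised the count to 9 members among 49 to 56 names, or 13 among 89 without animal D, and leaving out EVs of animal C raised it to 8 among 53.

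The leading names lay on the other side. On the log2 scale, EVs against serum before surgery gave −3.10 for miR-6743-5p (SE 0.850, edgeR adjusted p = 0.0786) and −2.21 for miR-6887-3p (SE 0.705, adjusted p = 0.164). miR-6743-5p passed by DESeq2 (3.54e-04), by limma-voom (0.0302), with all 16 libraries in 1 fit (0.0254) and without serum of animal D (0.00864). miR-6887-3p passed by DESeq2 (0.00401) and without serum of animal D (0.00948). Their values stayed below 0 in every alternative, at −1.82 or lower for miR-6743-5p and −0.90 or lower for miR-6887-3p. By share, both were lower in EVs than in serum in animals A, B, C and E. In animal D both were higher in EVs, at 1.48% against 1.31% for miR-6743-5p and 1.64% against 1.47% for miR-6887-3p. Serum was the deeper library in A, B, C and E, and EVs in D (276696 against 76988 counts). The part of depth was not tested. miR-6756-3p had −0.79 (SE 0.541, adjusted p = 0.575), and 0.12 under library totals. Of the 112 members tested, 87 lay above 0 (77.7%, median 0.68), as did 483 of all 768 names (62.9%, median 0.35). So did 89 of the 109 tested names from miR-4251 to miR-4804 (81.7%, median 0.64), so the lean was not particular to the block. Under library totals the medians were 1.20 for members and 1.05 for all names.

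After surgery no member passed between EVs and serum (edgeR, n = 3 and 3, 0% of 747 tested names called). DESeq2 called 7 members among 41 names and limma-voom 6 among 42. At an unadjusted p under 0.05 stood 9 of the 110 members tested (8.18%), 6 higher and 3 lower, against 8.03% of all (5.22% higher and 2.81% lower). Of these 9, 6 were listed at 0 in every library of 1 fluid. They passed the filter on low counts through the other fluid alone, so their direction is no result. Serum of animal D decided this count, since without it 52 of 117 members passed among 251 of 843 names, and without both day 6 libraries 57 of 108 members passed among 376 of 776. The remaining serum libraries, of animals E and F, are 2 that share their zeros. Members at 0 in both passed the filter on low counts through EVs alone and could only come out higher there. The calls were not split by these zeros, so their counts are no result about the block. Of the members with the smallest p, miR-6742-5p was listed at 0 in serum and had 35, 24 and 103 counts in EVs of animals D to F, miR-6721-5p 28, 29 and 32, and miR-6798-3p 22, 33 and 38. miR-6846-3p was listed at 0 in the 3 EV libraries and had 37, 13 and 18 counts in serum. Each of these 4 had an adjusted p of 0.145 (edgeR). Log2 fold changes were −2.54 (SE 1.01) for miR-6887-5p and −1.66 (SE 0.664) for miR-6743-5p, both at an edgeR adjusted p of 0.519. They were −1.78 (SE 1.21, edgeR adjusted p = 0.717) for miR-6887-3p and −1.08 (SE 1.11, edgeR adjusted p = 0.761) for miR-6756-3p. These last values depended on animal D, at −0.62 and −0.052 without its serum library and −3.68 and −2.95 without its EV library. Without both they were −2.48 and −1.88 and passed (edgeR adjusted p = 0.0216 and 0.0377, n = 2 and 2), in the fit that called 376 of 776 names.

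**Figure D5:**
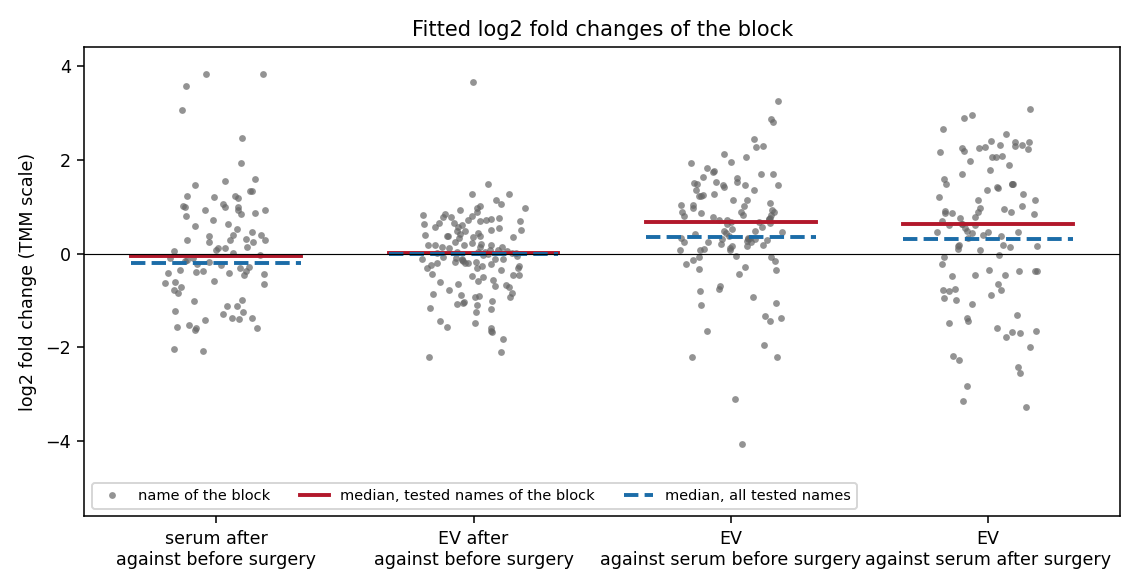
Fitted log2 fold changes (TMM scale) of the tested names of the block in 4 comparisons, with 1 point per name. Names listed at 0 in every library of a group are left out of the points. Solid lines are medians of the tested names of the block (−0.053, 0.011, 0.68 and 0.62 from left to right) and dashed lines those of all tested names (−0.20, −0.017, 0.35 and 0.30).

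Whether the change after surgery differed between the fluids was tested as an interaction over all 16 libraries, and no member passed (edgeR, 0% of 1018 tested names called; DESeq2 called 5 names, none of them members, and limma-voom 0). At an unadjusted p under 0.05 stood 19 of 147 members (12.9%), 7 higher and 12 lower in EVs than in serum, against 8.35% of all tested names (4.91% and 3.44%). Of the 147 members, 36 were listed at 0 in every library of at least 1 group, and 16 of the 19 were among them, all but miR-6743-3p, miR-6813-3p and miR-6861-5p. The smallest p among members above 0 in each group belonged to miR-6743-3p, whose change was lower in EVs than in serum by the fit (−4.29, SE 1.5, adjusted p = 0.444), and −0.68 without serum of animal D after surgery. The others with the smallest p were miR-6787-5p, miR-6742-5p and miR-6866-5p, listed at 0 in serum after surgery, and miR-6779-3p and miR-6803-5p, listed at 0 in serum before surgery (adjusted p = 0.414 to 0.444). Without serum of animal B before surgery 6 names passed, 1 of them a member, miR-6787-5p (adjusted p = 0.0459). The comparisons of EVs with serum and of after with before surgery share libraries, so their values are not separate observations.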

How the data were processed

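Per the labels' protocols, debris was spun out of serum, EVs were taken by size on a qEV column, and RNA from an RNeasy kit went into QIAseq miRNA libraries. The authors deposited whole-number counts per miRNA or piRNA name. The submitters' processing notes list the build hg19 and version 2.20.0.422 of bcl2fastq. Which aligner and annotation were used, and whether molecular identifiers were counted, is not given in the sources used here.

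Counts were used as deposited and fitted on the whole table by the quasi-likelihood test of edgeR 4.0.16 (R 4.3.3), with TMM scaling, a filterByExpr minimum count of 10 and Benjamini-Hochberg adjustment over all tested names at a threshold of 0.05. The code was tested on simulated data. DESeq2 1.42.0, limma-voom 3.58.1 and other scalings, filters and left-out libraries were alternatives. Depth was 65537 to 639207 counts per library, and TMM factors ran from 0.278 to 2.94. The scalings to library totals and TMM differ accordingly.

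The members, lists and tests were chosen with earlier results of these data known. Named members were the 12 with the highest mean share, the 3 smallest p per direction and comparison (or those that passed), the 10 most abundant hairpins with both arms and miR-6724. The labels do not say whether samples are separate draws, so p-values reflect only how these samples vary, and some of that may be technical. Reading the title letters as animals gives the pairing. Deviations from group means of serum and EVs of 1 animal before surgery correlated at −0.167 to 0.165, and those of D and E before and after surgery at −0.0122 to 0.346 in serum and 0.404 to 0.694 in EVs.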

Additional observations from a re-analysis of the deposited data

Results flagged for a closer look

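By Dixon's ratio of gap to range, a library stood far from the other 4 of its group in 6 of 30 sets of 5 libraries. Chance flags about 1 in 20 of independent, normally distributed sets. These sets reuse the same libraries, and the share of the 151 members contains several of the single names. The 6 flags therefore cannot be set against that rate. In serum of animal D before surgery, the serum library with the lowest total (76988 counts), the 151 members outside the leading 3 took 7.34% of counts against 0.556% to 1.65% in animals A, B, C and E. The same library stood apart for miR-6717-5p (0.126% against 0.0086% to 0.0257%) and miR-6752-3p (0.147% against 0.00203% to 0.0196%). miR-6815-3p took 0.832% in EVs of animal A before surgery against 0% to 0.0641%. miR-6800-5p took 0.0189% in serum of animal C, the library with the highest total, against 0.0709% to 0.0892%, and 0.130% in EVs of animal E before surgery against 0.0347% to 0.0501%.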

How the results depend on the processing

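In serum after surgery, 2 names passed without a filter on low counts, both members, and 0 otherwise. In EVs after surgery 0 passed under any alternative run. For EVs against serum before surgery (23 names, 3 members), DESeq2 called 54 names and 8 members, limma-voom 150 and 25, no filter 56 and 11, and all 16 libraries in 1 fit 57 and 11. A minimum count of 50, names above 0 in every compared library, and the replicate block (paired by animal) each called 0 and 0. Leaving out 1 library gave 26 to 89 names and 3 to 13 members. After surgery (0 and 0), DESeq2 called 41 names and 7 members, limma-voom 42 and 6, leaving out 1 library 0 to 251 names and 0 to 52 members, and leaving out both day 6 libraries, chosen after seeing the data, 376 and 57. For the interaction DESeq2 called 5 names, and leaving out 1 library gave 0 to 6 names and 0 to 1 members. The replicate block changed no other call.

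The block's share without red blood cell names was 15.3% in serum and 10.6% in EVs before surgery. Without the 3 leading names, also chosen after seeing the data, it was 2.36% in serum before and 2.05% after surgery, and 4.96% in EVs before and 3.46% after it. Its 5p share without miR-6887-3p was 80.7% and 60.8% in serum before and after surgery and 61.3% in EVs before it, and without the 3 leading names 60.7%, 51.3% and 60.4%. In EVs before surgery it was 45.9% over names above 0 in all libraries and 46.1% over hairpins with both arms. The sign of miR-6743-5p in serum after surgery turned with the replicate block (0.53), that of miR-6756-3p between EVs and serum before surgery with library totals (0.12) and that of the interaction for miR-6803-5p without the day 6 libraries (adjusted p = 1.00). Leaving out 1 library gave log2 fold changes after surgery of −0.053 to 1.38 in serum and −0.39 to 1.92 in EVs for miR-6887-3p and −0.56 to 1.73 in EVs for miR-6756-3p, and an adjusted p of 0.399 to 1.00 for the interaction of miR-6803-5p. The cause was not tested. The lowest total, 65537 counts, limits what low members can show.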
